A study of Mus musculus with 27 samples.

Results

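The comparison described here is whether proton irradiation of bone marrow cells altered the response of the macrophages grown from them to lipopolysaccharide (LPS). Bone marrow cells of C57BL/6 mice, taken from the femur and tibia, received 5 Gy from a FLASH beam, which delivers its dose at an ultra-high rate, 5 Gy from a standard proton beam, or no irradiation. All cells then grew for 7 days in CSF-1 at 10 ng/ml, the growth factor that turns marrow precursors into macrophages. They spent the last 2 days in LPS at 100 ng/ml (M1), in IL-4 at 20 ng/ml (M2) or in control medium (M0). The 27 bulk RNA libraries fall into 9 labelled groups of 3. The quantity of interest is an interaction, namely the irradiated LPS minus the non-irradiated LPS difference, less the irradiated control minus the non-irradiated control difference. Both beams were pooled, and the IL-4 libraries entered no comparison. No age, sex or pooling of the mice is stated. Whether a replicate was a culture or a mouse of its own is not stated either, so the tests weigh differences against a spread among libraries that may be technical.

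LPS, a component of the bacterial outer membrane, is sensed by Tlr4 with its helpers Cd14 and Ly96. The adaptor Myd88 leads from there to NF-kappaB and to early inflammatory cytokines such as Tnf, Il1b and Il6. The adaptor Ticam1 leads to interferon beta, which acts back on the macrophage through its receptor and induces the antiviral genes, the chemokines Cxcl9, Cxcl10 and Cxcl11, the interferon-inducible GTPases and MHC class I. Over hours to days the response also raises feedback inhibitors of NF-kappaB, changes lipid and mitochondrial metabolism and slows proliferation.

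The libraries were chosen by the level of 2 genes, and those levels and the labels did not always go together. Irg1 makes the antimicrobial metabolite itaconate and is induced by LPS. Arg1, an arginase, is induced by IL-4 in mouse macrophages. An irradiated library was taken as LPS-exposed at 500 CPM (the deposited scaled count unit) of Irg1 or more, as IL-4-exposed at 100 CPM of Arg1 or more, and otherwise as a control, while non-irradiated libraries kept their label. This selected 18 of the 27 libraries, with 6 irradiated LPS, 3 non-irradiated LPS, 6 irradiated control and 3 non-irradiated control libraries. The levels lay far from both thresholds. In irradiated libraries the lowest Irg1 above its threshold was 1282 CPM and the highest below it was 30.9 CPM, and for Arg1 the same neighbours were 631 and 12.2 CPM. In 5 irradiated libraries, every one a replicate 1, the level went against the label. The library labelled FLASH M0 replicate 1 had 655 CPM of Arg1, and so did standard M1 replicate 1 at 643 CPM. Both genes were low, with 14.9 CPM of Irg1 and 4.64 CPM of Arg1, in the library that the labels call FLASH M1 replicate 1. The libraries labelled FLASH M2 replicate 1 and standard M2 replicate 1 had 1557 and 1715 CPM of Irg1. A state read from expression is not a label, so every test below used the 22 libraries whose label and level gave the same state, of which 15 belong to the compared groups. These 15 are 4 irradiated LPS libraries (FLASH M1 and standard M1, replicates 2 and 3 of each), 3 non-irradiated LPS libraries, 5 irradiated control libraries (FLASH M0 replicates 2 and 3, standard M0 replicates 1, 2 and 3) and 3 non-irradiated control libraries. Values are given in these orders. The other 3 of the 18 are called the LPS-level libraries (FLASH M2 replicate 1 and standard M2 replicate 1) and the control-level library (FLASH M1 replicate 1). Their values stand beside the main genes as a description and entered no test. Since Irg1 and Arg1 chose the libraries, their own levels are given without a test.

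**Figure D1:**
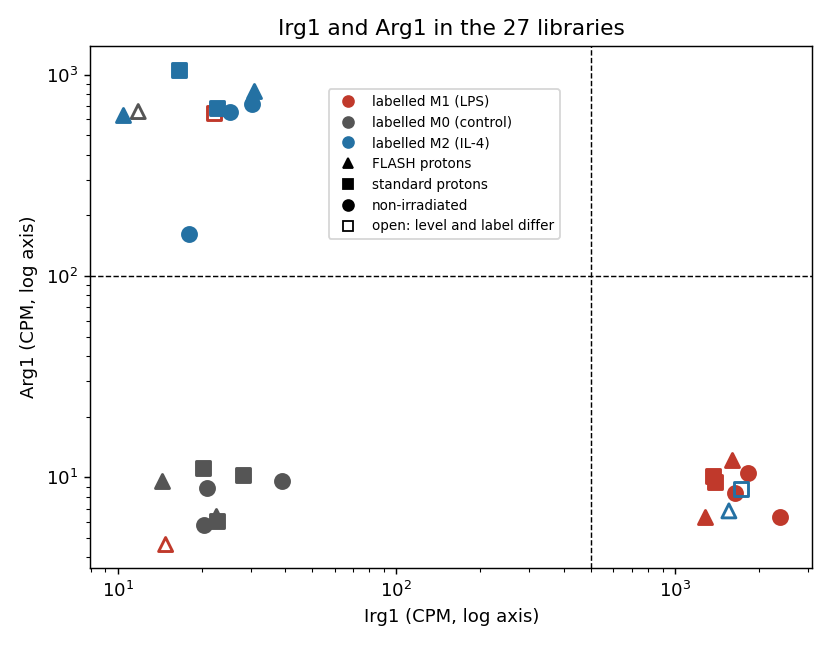
Irg1 (x axis) and Arg1 (y axis) in each of the 27 libraries, in CPM on log axes, with dashed lines at 500 CPM of Irg1 and 100 CPM of Arg1. Color gives the labelled state, shape the irradiation, and open symbols mark the 5 libraries whose level went against their label. No library was near a line except 1 non-irradiated M2 library at 161 CPM of Arg1, whose state was taken from its label.

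The libraries held 20.68 to 25.84 M assigned reads, read from the smallest step of the deposited values, and 11577 to 12127 genes per library reached 1 CPM. Fold differences below are log2 differences of CPM with a pseudocount of 0.5, which understates the change of genes near 0. They come from 1 limma fit of 13297 genes (at least 1 CPM in at least 3 libraries), and a gene was called at a Benjamini-Hochberg adjusted p under 0.05. A response means LPS minus control. A response called without irradiation was lost where the interaction was called and the irradiated response was not, weakened or strengthened where both responses were called in the same direction with a called interaction, and reversed where they were called in opposite directions. It was gained where only the irradiated response and the interaction were called. It was retained where the interaction was not called and its 95% interval lay within 1 log2 unit of 0, and undetermined where that interval was wider. This margin was the same for every gene, so a response under 1 log2 unit could shrink or vanish and still count as retained.

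Most LPS responses had the same direction in irradiated and non-irradiated macrophages. LPS changed 5042 genes in irradiated macrophages, or 37.9% of those tested, with 2554 higher (19.2%) and 2488 lower (18.7%). It changed 4764 genes in non-irradiated macrophages, or 35.8%, with 2464 higher (18.5%) and 2300 lower (17.3%). Of the 4764 non-irradiated responses, 4338 (91.1%) had the same sign after irradiation. Among 3302 genes called in both, 3258 moved in the same direction. The interaction was called for 454 genes, or 3.41% of those tested, with 223 positive (1.68%) and 231 negative (1.74%). These were 155 lost, 106 weakened, 44 reversed, 119 gained and 30 strengthened responses. Retained responses numbered 3003, which is 63% of the 4764, and 1426 (29.9%) were undetermined. The median ratio of the irradiated to the non-irradiated response was 0.805 among the retained and 0.717 over the 4764. These genes were chosen by a called non-irradiated response, so the ratios are a description. The lost responses comprised 70 genes that rose and 85 that fell with LPS in non-irradiated macrophages. The gained ones comprised 62 that rose and 57 that fell with LPS in irradiated macrophages. The number called depended on the scaling. With all columns brought to equal totals, the interaction was called for 952 genes, 830 of them positive, and the median interaction over all genes was 0.16 in place of -0.02. It depended on single libraries as well. It was 285 without FLASH M0 replicate 3, 238 without FLASH M1 replicate 3, 233 without standard M1 replicate 3, 289 and 196 without non-irradiated M1 replicates 2 and 3, and 259 and 257 without non-irradiated M0 replicates 1 and 3. With all 27 libraries kept under their labels, the discordant ones included, it was 68. Replicates 1, 2 and 3 carry the same code in the title in every group, and no source used here says what the code stands for. The irradiated LPS libraries tested hold no replicate 1 and the other 3 groups do, and with replicates 2 and 3 only the interaction was called for 183 genes, 157 of them among the 454. With the replicate number as a block it was 293 (286 of the 454).

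**Figure D2:**
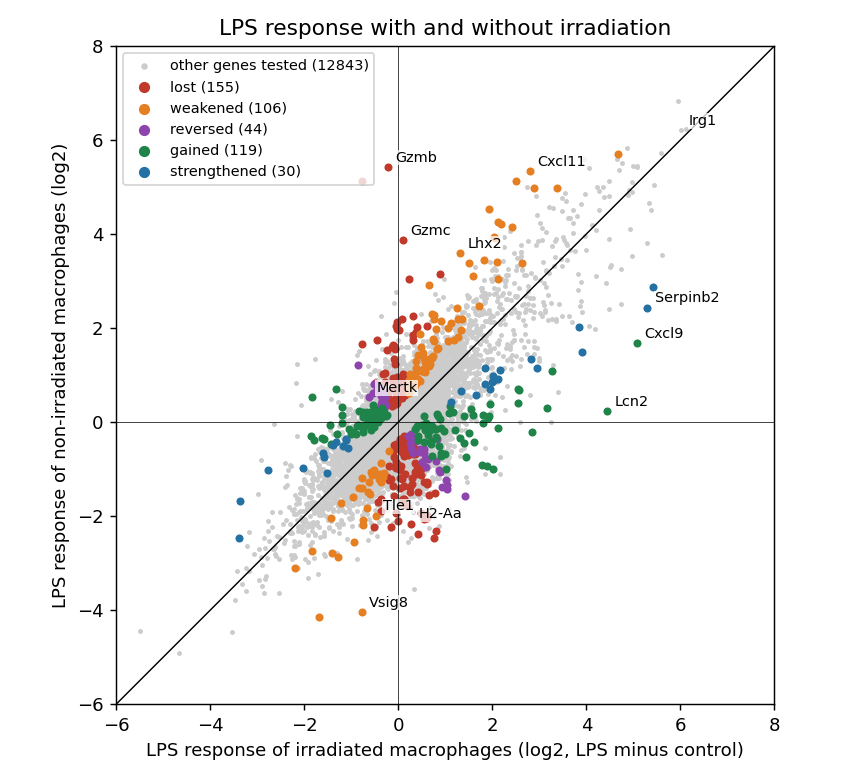
LPS response (log2, LPS minus control) of irradiated macrophages (x axis) against that of non-irradiated macrophages (y axis) for the 13297 genes tested. The line marks equal responses and colors mark the 5 kinds of called interaction. Gzmb stands at a response near 0 in irradiated macrophages and at 5.42 in non-irradiated macrophages, while Lcn2 stands at 4.45 in irradiated and 0.23 in non-irradiated macrophages.

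The response of Gzmb, a serine protease of cytotoxic granules (granzyme B), was not detected after irradiation. The 4 irradiated LPS libraries had 0.121, 0.121, 0.661 and 0.725 CPM, against 42.7, 31.1 and 42.3 CPM in the non-irradiated LPS libraries. Irradiated control libraries had 0.373, 0.230, 0.606, 0.401 and 1.12 CPM, against 0.307, 0.708 and 0.261 CPM in the non-irradiated control libraries. The non-irradiated LPS libraries were thus the high ones, with no overlap with any other group. The irradiated response was -0.23 and the non-irradiated response 5.42, and the interaction was -5.65 ± 0.59 (SE, limma, adjusted p = 3.79e-05). The LPS-level libraries had 0.623 and 0.304 CPM and the control-level library 0.564 CPM. Gzmb and Tle1 were singled out with results of these data known, so their p-values are no independent evidence. In bulk RNA, fewer cells of a type and less RNA per cell cannot be told apart.

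Further transcripts known from natural killer cells and T cells behaved like Gzmb. Gzmc, the neighbouring granzyme C gene, had 0.0404, 0.0807, 0.0826 and 0.469 CPM in irradiated LPS libraries, against 9.17, 8.995 and 9.26 CPM in non-irradiated LPS libraries, and at most 0.166 CPM in irradiated control and 0.345 CPM in non-irradiated control libraries. Its interaction was -3.77 ± 0.42 (SE, limma, adjusted p = 6.84e-05). The granzymes are close paralogues, so reads of Gzmb and Gzmc may have been divided between them. Il2rb, the beta chain of the receptors for IL-2 and IL-15, had 0.202, 0.363, 0.826 and 1.32 CPM in irradiated LPS libraries, against 19.0, 15.4 and 19.9 CPM in non-irradiated LPS libraries. Its levels were 0 to 0.975 CPM in irradiated control libraries, against 0.959 to 2.53 CPM in non-irradiated control libraries, and its interaction was -2.81 (limma, adjusted p = 0.0186). The call for Il2rb was lost without non-irradiated M0 replicate 1 or non-irradiated M1 replicate 3, with an adjusted p of up to 0.055. Of the 32 listed killer-cell and T cell transcripts, 19 passed the filter on low values. A gene that passed only through its level in non-irradiated LPS libraries had to differ, so the counts over the 19 describe them and support nothing. Among these 19, the irradiated response was called up in 3 and down in 1, the non-irradiated response up in 12 and down in none, and the interaction negative in 9, against 19.2%, 18.7%, 18.5%, 17.3% and 1.74% of all genes for the same calls. They were 8 lost responses and 1 gained one (the protease inhibitor Serpinb6b, which fell with LPS in irradiated macrophages), and the median interaction of the 19 was -1.51, against -0.02 over all genes. The lost ones were, beside these 3, the kinase Lck, the cytokine Ifng, the transcription factor Tbx21, the protease Ctsw and the T cell receptor constant segment Trbc2. Ifng had 0.121, 0.484, 0.248 and 0.469 CPM in irradiated LPS libraries, against 2.56, 3.82 and 3.33 CPM in non-irradiated LPS libraries, with an interaction of -1.94. The number of negative members was 5, 4, 5 and 3 without FLASH M1 replicate 3, non-irradiated M0 replicate 1, non-irradiated M0 replicate 3 and non-irradiated M1 replicate 3.

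The defining markers of those cells were at low levels, some of them higher in non-irradiated LPS libraries. The 32 listed transcripts summed to 88.8 to 115 CPM in irradiated LPS libraries, against 280 to 290 CPM (280.1 to 289.9) in non-irradiated LPS libraries, and to 50.8 to 91.9 CPM in irradiated control libraries, against 58.1 to 93 CPM in non-irradiated control libraries. Cd3e, a chain of the T cell receptor complex, had 0.0403 to 0.426 CPM in irradiated LPS libraries, against 0.233, 1.27 and 1.26 CPM in non-irradiated LPS libraries. Its partner chain Cd3g had 0.0403, 0, 0.537 and 0.981 CPM in irradiated LPS libraries, against 1.303, 2.16 and 2.11 CPM in non-irradiated LPS libraries. Nkg7, a granule protein of natural killer and cytotoxic T cells, had 0.0807, 0.161, 0.0413 and 0 CPM in irradiated LPS libraries, against 2.65, 1.655 and 5.12 CPM in non-irradiated LPS libraries. Lck had 1.17, 0.282, 0.413 and 0.853 CPM in irradiated LPS libraries, against 4.98, 3.78 and 4.67 CPM in non-irradiated LPS libraries. Cd3g, Nkg7 and Lck were thus higher in non-irradiated than in irradiated LPS libraries, without overlap, while Cd3e overlapped. Cd3g also stood at 1.77 CPM in 1 irradiated control library, standard M0 replicate 1, above the lowest non-irradiated LPS library. Prf1 (perforin), the pore-forming partner of the granzymes, was at 0 in 2 of the 3 non-irradiated LPS libraries. Ncr1, a receptor of natural killer cells, had 0.559, 0.0849 and 0.629 CPM in non-irradiated LPS libraries. Txk, a kinase of T cells that was in no list and is named after its values were seen, was listed at 0 in all 4 irradiated LPS libraries, against 1.40, 1.99 and 1.71 CPM in non-irradiated LPS libraries. The part of such cells in the loss of the granzyme response was not tested.

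The promoter sequences of both granzymes are shown because their levels moved together. Beside them stand those of 2 interferon-induced chemokines, described further on, of which Cxcl9 had a called interaction and Cxcl10 did not. The windows run from 250 bases before to 50 after the start of the gene in RefSeq on GRCm38.p6, written 5′ to 3′. Capitals mark matches, on either strand, to GAAANNGAA (the core of the interferon-stimulated response element), GGGNNTTCC (a short kappaB form) and TTCNNNGAA (the gamma-activated site).
Gzmb (chr14:56262285-56262584, minus strand): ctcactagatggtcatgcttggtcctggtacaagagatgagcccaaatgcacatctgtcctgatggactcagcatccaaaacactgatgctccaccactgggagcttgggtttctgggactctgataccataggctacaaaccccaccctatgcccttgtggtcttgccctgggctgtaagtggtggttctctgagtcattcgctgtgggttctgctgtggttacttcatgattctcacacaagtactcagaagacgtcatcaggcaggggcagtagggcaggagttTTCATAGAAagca
Gzmc (chr14:56234608-56234907, minus strand): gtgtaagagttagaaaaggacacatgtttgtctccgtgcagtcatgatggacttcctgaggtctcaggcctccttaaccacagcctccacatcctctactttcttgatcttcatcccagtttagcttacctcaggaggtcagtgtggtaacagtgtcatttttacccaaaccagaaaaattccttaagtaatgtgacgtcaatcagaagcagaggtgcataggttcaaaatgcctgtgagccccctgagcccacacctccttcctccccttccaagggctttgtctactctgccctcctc
Cxcl9 (chr5:92328030-92328329, minus strand): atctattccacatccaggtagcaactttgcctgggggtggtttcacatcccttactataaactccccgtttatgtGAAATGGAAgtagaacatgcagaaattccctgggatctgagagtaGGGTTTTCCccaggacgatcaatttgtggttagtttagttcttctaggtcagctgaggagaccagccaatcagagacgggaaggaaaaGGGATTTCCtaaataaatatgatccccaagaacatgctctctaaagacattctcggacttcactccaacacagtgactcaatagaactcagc
Cxcl10 (chr5:92348840-92349139, minus strand): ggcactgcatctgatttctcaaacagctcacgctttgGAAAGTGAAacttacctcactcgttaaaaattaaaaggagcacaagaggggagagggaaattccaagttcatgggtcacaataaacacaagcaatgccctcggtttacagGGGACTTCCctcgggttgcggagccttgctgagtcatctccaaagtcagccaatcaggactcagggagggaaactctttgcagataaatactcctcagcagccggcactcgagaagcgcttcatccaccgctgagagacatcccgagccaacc
The Gzmb window held 1 match to TTCNNNGAA near its 3′ end and the Gzmc window none of the 3 motifs. The Cxcl9 window held 1 match to GAAANNGAA and 2 to GGGNNTTCC, and the Cxcl10 window 1 of each. Among all 32851 RefSeq windows, 8.56% held GAAANNGAA, 5.82% GGGNNTTCC and 8.3% TTCNNNGAA. Windows were found for 52 of the 70 lost responses that had been upward, and 11 of their 63 windows (17.5%) held GAAANNGAA. For upward responses of the other classes it was 11 of 70 windows (15.7%) for weakened, 3 of 20 (15%) for strengthened, 4 of 60 (6.67%) for gained and 135 of 1539 (8.77%) for retained ones, and 7.38% for all genes tested. The share in the lost responses thus lay near those in the weakened and strengthened ones. These are counts of letters, with no test.

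Among the lost downward responses were MHC class II genes, whose products present peptides to CD4 T cells. H2-Aa, the class II alpha chain, had 18, 22.3, 22.3 and 19.7 CPM in irradiated LPS libraries, against 223, 86.9 and 112 CPM in non-irradiated LPS libraries. It had 15.02, 21.99, 10.4, 22.2 and 17.7 CPM in irradiated control libraries, against 387, 795 and 637 CPM in non-irradiated control libraries. Irradiated libraries were low in both media and did not overlap with non-irradiated ones. The irradiated response was 0.28 and the non-irradiated response -2.16, with an interaction of 2.44 ± 0.41 (SE, limma, adjusted p = 0.00407). The difference itself was -2.63 in LPS and -5.07 in control medium, so it was larger without LPS. The beta chain H2-Ab1 had an interaction of 2.58 (limma, adjusted p = 0.00752) and the invariant chain Cd74, which escorts class II molecules, of 1.96 (limma, adjusted p = 0.0211). The call for Cd74 was lost without non-irradiated M1 replicate 2 or 3, with an adjusted p of up to 0.0685. Ciita, the master activator of class II transcription, averaged 1.37 ± 0.97 CPM in irradiated LPS libraries, against 6.09 ± 1.47 CPM in non-irradiated LPS libraries (SD, n = 4 and n = 3). It averaged 2.16 ± 0.74 CPM in irradiated control libraries, against 41.4 ± 27.5 CPM in non-irradiated control libraries (SD, n = 5 and n = 3), and its interaction of 1.87 was not called (limma, adjusted p = 0.0791). Of the 11 class II genes and factors, 4 had a positive and none a negative interaction, against 1.68% and 1.74% of all genes, with a median of 1.17. Irradiated minus non-irradiated differences were called lower for 9 of them in LPS and for 10 in control medium, against 6.17% and 6.69% of all genes. The positive count was 2 without non-irradiated M1 replicate 2.

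Lost responses outside these groups included a pair of neighbouring membrane protein genes. Tmem176b had 8.64, 18.2, 9.30 and 24.1 CPM in irradiated LPS libraries, against 26.8, 10.3 and 11.95 CPM in non-irradiated LPS libraries, where the groups overlapped. It had 8.67, 6.21, 5.93, 10.3 and 8.24 CPM in irradiated control libraries, against 68.5, 87.9 and 75.1 CPM in non-irradiated control libraries, where they did not. Its interaction was 3.12 ± 0.60 (SE, limma, adjusted p = 0.00854), and that of Tmem176a was 3.21 (limma, adjusted p = 0.0358). Of the 15 fits that left out 1 library, Tmem176a kept its call only without FLASH M0 replicate 2, FLASH M1 replicate 2, standard M0 replicate 2 or 3, standard M1 replicate 2 or non-irradiated M1 replicate 1, and its adjusted p reached 0.1. Blnk, an adaptor of B cell receptor signalling that macrophages also express, had 142, 182, 132 and 173 CPM in irradiated LPS libraries, against 95.1, 96.5 and 84.6 CPM in non-irradiated LPS libraries, and its interaction was 0.71 ± 0.14 (SE, limma, adjusted p = 0.0113). Tusc3, an oligosaccharyltransferase subunit, had at most 0.554 CPM in irradiated LPS libraries, against 11.96, 16.04 and 25.3 CPM in non-irradiated LPS libraries. It stood at 11.03 CPM in 1 irradiated control library, FLASH M0 replicate 2, and at 8.72 CPM in an LPS-level library, FLASH M2 replicate 1, and under 0.3 CPM in the other control libraries of both kinds. It was therefore on or off by library rather than graded, and its interaction of -5.89 ± 0.99 (SE, limma, adjusted p = 0.00369) rests on such values.

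Tle1, a Groucho-family corepressor, fell with LPS in both settings and fell less after irradiation. It had 11.3, 13.5, 12.9 and 13.8 CPM in irradiated LPS libraries, against 7.08, 5.47 and 5.30 CPM in non-irradiated LPS libraries. It had 21.5, 17.9, 13.3, 18.5 and 20.5 CPM in irradiated control libraries, against 25.6, 22.6 and 26.8 CPM in non-irradiated control libraries. Neither pair overlapped, and irradiated libraries were the higher ones in LPS and the lower ones in control medium. The irradiated response was -0.48 and the non-irradiated response -1.99, with an interaction of 1.51 ± 0.20 (SE, limma, adjusted p = 0.000454). The LPS-level libraries had 15.8 and 14.0 CPM and the control-level library 16.3 CPM. Of 15 tested Groucho and Notch pathway genes Tle1 alone had a called interaction, against 3.41% of all genes. Its relative Tle3 averaged 54.0 CPM in irradiated LPS and 84.6 CPM in non-irradiated LPS libraries, with an interaction of -0.20, and Tle4 had an interaction of -0.02, neither called.

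Weakened upward responses included interferon-inducible genes. Cxcl11, a chemokine for activated T cells, had 4.52, 8.75, 3.72 and 2.82 CPM in irradiated LPS libraries, against 23.2, 29.8 and 26.2 CPM in non-irradiated LPS libraries, with no overlap. It stayed under 0.3 CPM in every control library of both kinds. The irradiated response was 2.80 and the non-irradiated response 5.34, with an interaction of -2.54 ± 0.38 (SE, limma, adjusted p = 0.00169), and the LPS-level libraries had 9.97 and 5.56 CPM. C4b, a complement component, had 6.05, 6.29, 6.41 and 8.87 CPM in irradiated LPS libraries, against 29.4, 33.4 and 31.4 CPM in non-irradiated LPS libraries, and its interaction was -2.25 ± 0.38 (SE, limma, adjusted p = 0.00382). The surface protein Ly6a had 83.7, 66.3, 74.1 and 26.1 CPM in irradiated LPS libraries, against 497, 416 and 495 CPM in non-irradiated LPS libraries. Its interaction of -2.02 (limma, adjusted p = 0.019) was lost without non-irradiated M0 replicate 1 or non-irradiated M1 replicate 3, at an adjusted p of up to 0.055. Il18bp, a secreted inhibitor of IL-18, averaged 61.2 ± 11.5 CPM in irradiated LPS libraries and 194 ± 25.9 CPM in non-irradiated LPS libraries (SD, n = 4 and n = 3). Its interaction was -2.14 (limma, adjusted p = 0.0205) and was lost without non-irradiated M0 replicate 1 or 3 or non-irradiated M1 replicate 3, at up to 0.0625. The T cell-specific GTPase Tgtp1 had an interaction of -2.62 (limma, adjusted p = 0.0294), lost without FLASH M0 replicate 3, FLASH M1 replicate 2, standard M1 replicate 3, non-irradiated M0 replicate 1 or non-irradiated M1 replicate 2 or 3 at up to 0.0769, while its near-identical copy Tgtp2 had -0.07, and reads of the pair may have been divided between them. The transcription factor Lhx2 had 1.29, 0.928, 1.65 and 1.15 CPM in irradiated LPS libraries, against 10.0, 12.9 and 10.3 CPM in non-irradiated LPS libraries, with an interaction of -2.27 (limma, adjusted p = 0.019).

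The antiviral interferon-stimulated genes as a list rose with LPS in every case, in irradiated as in non-irradiated macrophages. All 39 of those tested were called up in both, against 19.2% of all genes in irradiated and 18.5% in non-irradiated macrophages, with a median response of 2.33 in irradiated and 3.43 in non-irradiated macrophages. Their interaction lay below 0 in 39 of 39, where over all genes it did so in 6916 of 13297, and the median was -0.92. None of the 39 was called, and 35 were undetermined. One library decided this count: without non-irradiated M0 replicate 2, 19 of the 39 had a called negative interaction, with a median of -1.40. The list summed to 14269 to 18661 CPM in irradiated LPS libraries, against 23071 to 27279 CPM in non-irradiated LPS libraries, and to 2671 to 4238 CPM in irradiated control libraries, against 1488 to 5057 CPM in non-irradiated control libraries. Irf7, the transcription factor that amplifies interferon production, had 1765, 1967, 1888 and 1399 CPM in irradiated LPS libraries, against 2498, 2438 and 2697 CPM in non-irradiated LPS libraries. In control medium it had 62.7 to 108 CPM in irradiated libraries, against 36.7, 309 and 42.7 CPM in non-irradiated libraries. Its interaction was -0.65 and that of Isg15, a ubiquitin-like antiviral protein, was -1.32, neither called. Of 16 interferon-inducible GTPases, 14 rose with LPS in irradiated and 16 in non-irradiated macrophages, against the same 19.2% and 18.5% of all genes. Tgtp1 was the 1 with a called interaction, against 3.41%, and the other 15 were undetermined. After irradiation 6 of the 16 were called lower in LPS and 2 in control medium, against 6.17% and 6.69% of all genes. The GTPases summed to 1765 to 2459 CPM in irradiated LPS libraries, against 3807 to 5769 CPM in non-irradiated LPS libraries, without overlap. In control medium the sums were 295 to 409 CPM in irradiated libraries, against 251 to 1114 CPM in non-irradiated libraries.

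Weakened downward responses included scavenger-related and mitochondrial genes. Fcrls, an Fc receptor-like scavenger protein of mouse microglia and macrophages, had 9.08, 10.8, 12.3 and 18.6 CPM in irradiated LPS libraries, against 12.2, 4.50 and 5.12 CPM in non-irradiated LPS libraries. It had 31.6 to 49.1 CPM in irradiated control libraries, against 131, 130 and 116 CPM in non-irradiated control libraries, and its interaction was 2.47 ± 0.39 (SE, limma, adjusted p = 0.00295). Vsig8, an immunoglobulin-domain surface protein, had 2.58, 4.15, 4.22 and 2.30 CPM in irradiated LPS libraries, against 1.44, 0.891 and 1.03 CPM in non-irradiated LPS libraries. It had 4.11 to 11.5 CPM in irradiated control libraries, against 30.1, 19.2 and 30.1 CPM in non-irradiated control libraries, and its interaction was 3.27 ± 0.47 (SE, limma, adjusted p = 0.00114). All 13 mitochondrially encoded genes fell with LPS in both settings, against 18.7% of all genes in irradiated and 17.3% in non-irradiated macrophages, with a median response of -1.0032 in irradiated and -1.44 in non-irradiated macrophages. In LPS, 12 of them were higher in irradiated than in non-irradiated libraries, against 4.77% of all genes, and 3 (mt-Cytb, mt-Co3 and mt-Atp8) had a called positive interaction, against 1.68%. None of the 3 kept its call in the fits without FLASH M1 replicate 3, standard M1 replicate 3, non-irradiated M0 replicate 1 or non-irradiated M1 replicate 3, where the list had 0 called members. It had 1 without FLASH M0 replicate 3 or non-irradiated M0 replicate 3.

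Reversed responses included receptors for dying cells and bacterial RNA. Mertk, the receptor tyrosine kinase by which macrophages take up apoptotic cells, had 200.4, 232, 219 and 235 CPM in irradiated LPS libraries, against 302, 347 and 352 CPM in non-irradiated LPS libraries. It had 349, 359.8, 325, 351 and 320.4 CPM in irradiated control libraries, against 219, 291 and 194 CPM in non-irradiated control libraries. Irradiated libraries were the lower ones in LPS and the higher ones in control medium, with no overlap in either. The irradiated response was -0.62 and the non-irradiated response 0.53, with an interaction of -1.15 ± 0.19 (SE, limma, adjusted p = 0.00353). Tlr13, which senses bacterial ribosomal RNA in mice, had a response of -0.36 in irradiated and 0.56 in non-irradiated macrophages, with an interaction of -0.92 ± 0.14 (SE, limma, adjusted p = 0.00169). It had 408 to 479 CPM in irradiated LPS libraries, against 483 to 513 CPM (512.5) in non-irradiated LPS libraries, which lay close together without overlap, and 537 to 633 CPM in irradiated control libraries, against 297 to 401 CPM in non-irradiated control libraries. The difference was called in control medium (0.76) and not in LPS (-0.16). Cd5l, a secreted inhibitor of apoptosis made by tissue macrophages, had responses of -0.85 in irradiated and 1.22 in non-irradiated macrophages, and an interaction of -2.07 (limma, adjusted p = 0.0125). Its non-irradiated control libraries ranged from 298 to 1160 CPM. Ctps, the CTP synthase gene, was reversed the other way, with 11.6, 14.6, 13.1 and 13.9 CPM in irradiated LPS libraries, against 8.52, 7.77 and 4.94 CPM in non-irradiated LPS libraries. It had 7.05 to 9.80 CPM in irradiated control libraries, against 14.2, 10.95 and 17.01 CPM in non-irradiated control libraries, and an interaction of 1.55 ± 0.27 (SE, limma, adjusted p = 0.00382).

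Genes of cell division were among the lost and reversed responses, with calls that rested on single libraries. Of 37 proliferation genes tested, LPS raised 5 and lowered 1 in irradiated macrophages, and raised none and lowered 11 in non-irradiated macrophages. Over all genes it raised 19.2% and lowered 18.7% in irradiated macrophages, and raised 18.5% and lowered 17.3% in non-irradiated ones. The interaction was positive in 36 of 37, with a median of 1.47, and was called for 4 (Top2a, Ccnb2, Kif11 and Nusap1), against 1.68% of all genes called positive. Without FLASH M0 replicate 2 or 3, FLASH M1 replicate 3, standard M0 replicate 2 or 3, standard M1 replicate 3, any non-irradiated M1 replicate, or non-irradiated M0 replicate 1 or 3, none was called. It was 1 without standard M0 replicate 1 or non-irradiated M0 replicate 2, and 2 without FLASH M1 replicate 2. Esco2, a cohesin acetyltransferase needed in S phase, had 3.67, 6.73, 2.77 and 5.33 CPM in irradiated LPS libraries, against 1.68, 1.95 and 2.20 CPM in non-irradiated LPS libraries. It had 1.41 to 2.81 CPM in irradiated control libraries, against 6.83, 6.37 and 4.57 CPM in non-irradiated control libraries, and an interaction of 2.32 ± 0.51 (SE, limma, adjusted p = 0.016). Mki67, a marker of cycling cells, averaged 35.0 CPM in irradiated LPS and 28.3 CPM in non-irradiated LPS libraries, and 22.5 CPM in irradiated control and 59.0 CPM in non-irradiated control libraries, and its interaction of 1.59 was not called (limma, adjusted p = 0.106).

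Gained responses were led by Lcn2, the siderophore-binding protein lipocalin 2. It had 33.1, 112, 30.5 and 123 CPM (122.5) in irradiated LPS libraries, against 50.2, 109 and 37.5 CPM in non-irradiated LPS libraries, so the groups overlapped. It had 2.28, 1.79, 1.73, 3.33 and 2.83 CPM in irradiated control libraries, against 16.9, 149 and 50.1 CPM in non-irradiated control libraries, with no overlap. The irradiated response was 4.45 and the non-irradiated response 0.23, with an interaction of 4.22 ± 0.89 (SE, limma, adjusted p = 0.0143). The LPS-level libraries had 124 and 142 CPM and the control-level library 6.20 CPM. Lcn2 is also a granule protein of neutrophils, and the 19 neutrophil granule markers summed to 209 to 495 CPM in irradiated LPS libraries, against 585 to 701 CPM in non-irradiated LPS libraries, and to 188 to 241 CPM in irradiated control libraries, against 852 to 2358 CPM in non-irradiated control libraries. In control medium 15 of the 19 were called lower after irradiation, against 6.69% of all genes, and Ngp, a defining granule protein, averaged 2.38 CPM in irradiated control and 214 CPM in non-irradiated control libraries. The neutrophil list had 2 called positive interactions, Lcn2 and Fcnb, against 1.68% of all genes, and a median of 1.78. It had 1 without FLASH M0 replicate 3, FLASH M1 replicate 2 or 3, standard M0 replicate 1 or 3, standard M1 replicate 3, non-irradiated M0 replicate 2 or 3, or non-irradiated M1 replicate 2 or 3, and 4 without non-irradiated M1 replicate 1. The part of granulocyte RNA in these interactions was not tested.

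Other gained responses included chemokines. Cxcl9, a chemokine induced by interferon gamma, had 40.5, 50.3, 42.5 and 19.2 CPM in irradiated LPS libraries, against 14.2, 16.6 and 10.6 CPM in non-irradiated LPS libraries, with no overlap. It had 0.0975 to 1.48 CPM in irradiated control libraries, against 1.11, 2.42 and 17.7 CPM in non-irradiated control libraries. Its response was 5.08 in irradiated macrophages and 1.68 in non-irradiated ones, where it narrowly missed a call (limma, adjusted p = 0.0598). Its interaction was 3.40 ± 0.87 (SE, limma, adjusted p = 0.0389) and kept its call in only 4 of the 15 leave-outs, those of non-irradiated M0 replicates 1 and 2, standard M0 replicate 2 and standard M1 replicate 3, with an adjusted p of up to 0.0939 in the others. Its neighbour Cxcl10, with the promoter shown above, averaged 128 CPM in irradiated LPS and 385 CPM in non-irradiated LPS libraries and had an interaction of -0.64 (limma, adjusted p = 0.711). Raver2, an RNA-binding protein, had 7.83, 5.36, 6.45 and 7.72 CPM in irradiated LPS libraries, against 1.16, 0.212 and 0.404 CPM in non-irradiated LPS libraries. All control libraries stayed under 0.7 CPM, and its interaction was 2.88 ± 0.40 (SE, limma, adjusted p = 0.000943). Bmp1, a protease that matures collagens and growth factors, had 7.95, 11.4, 9.01 and 9.21 CPM in irradiated LPS libraries, against 3.12, 2.46 and 2.47 CPM in non-irradiated LPS libraries. It had 1.20 to 3.65 CPM in irradiated control libraries, against 6.75, 5.29 and 4.79 CPM in non-irradiated control libraries, and an interaction of 2.82 ± 0.54 (SE, limma, adjusted p = 0.00752). Ccl9, a chemokine for myeloid cells in mice, averaged 634 ± 148 CPM in irradiated LPS and 435 ± 156 CPM in non-irradiated LPS libraries (SD, n = 4 and n = 3). It averaged 212 ± 49.1 CPM in irradiated control and 377 ± 47.7 CPM in non-irradiated control libraries (SD, n = 5 and n = 3). Its interaction of 1.42 (limma, adjusted p = 0.0229) was lost without FLASH M1 replicate 3, standard M1 replicate 3 or non-irradiated M1 replicate 2 or 3, at an adjusted p of up to 0.0664.

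**Figure D3:**
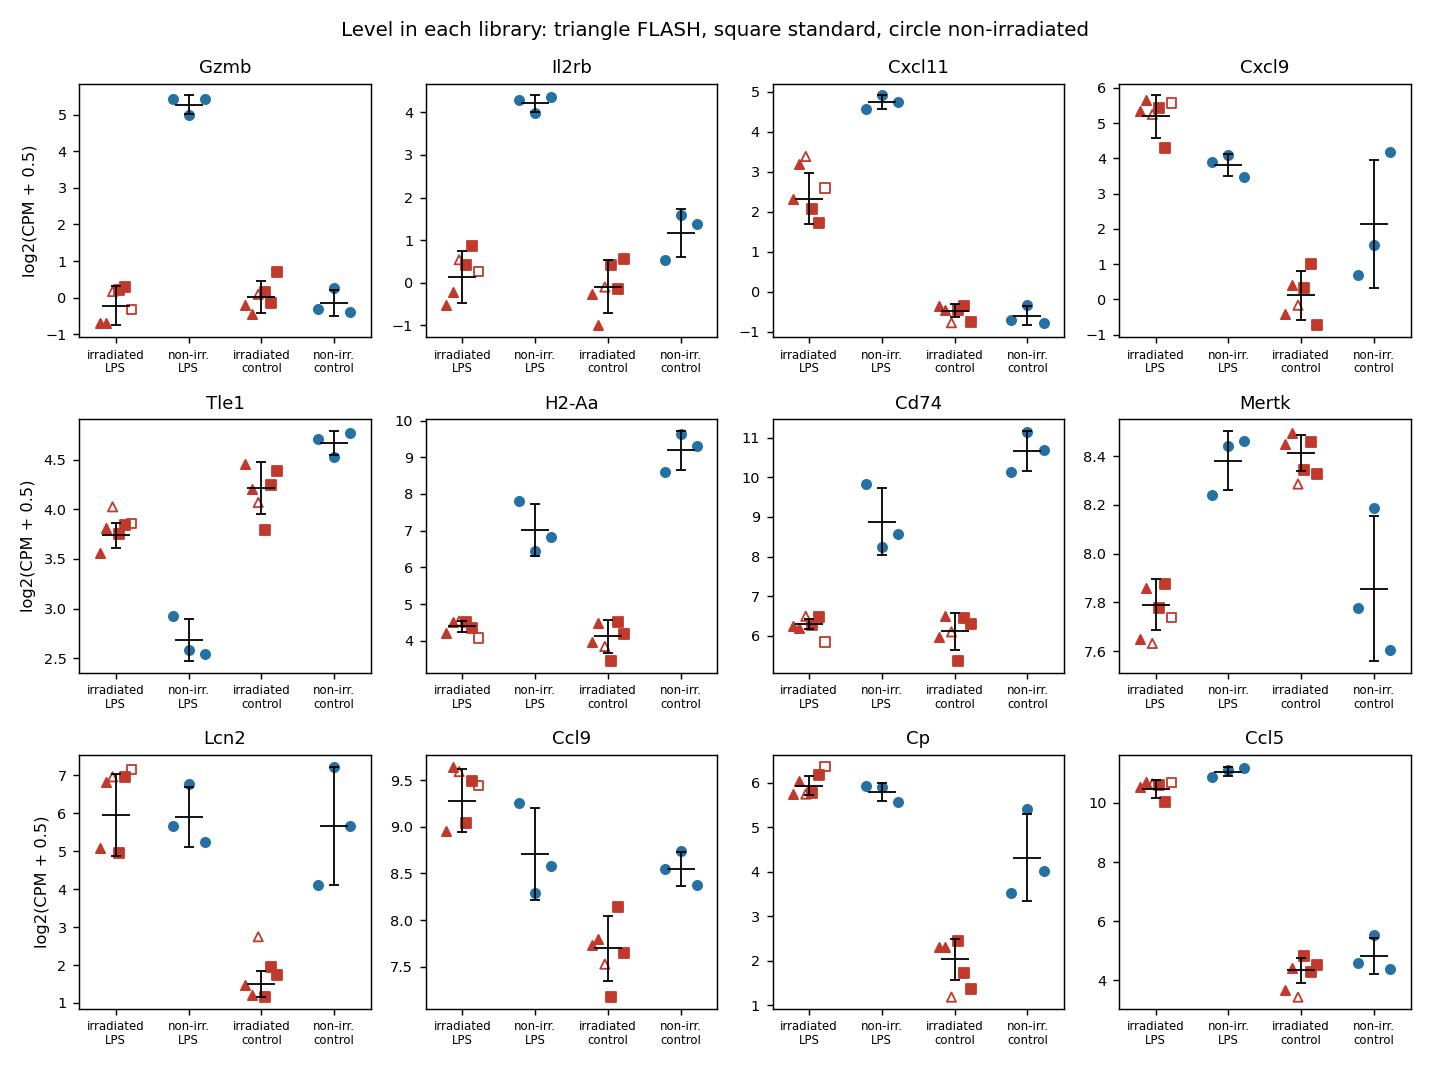
Level of 12 genes in each library, as log2 of CPM plus 0.5 (y axis), in irradiated LPS, non-irradiated LPS, irradiated control and non-irradiated control libraries from left to right. Filled symbols are the tested libraries with their mean and SD (4, 3, 5 and 3 libraries), and open symbols are the LPS-level and control-level libraries. Gzmb and Il2rb are high only in the 3 non-irradiated LPS libraries, while Lcn2 and Cp are lowest in irradiated control libraries. For Cp the non-irradiated control libraries also lie below the LPS libraries.

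Strengthened responses were mostly of genes that differed between irradiated and non-irradiated macrophages in control medium. Of the 30, 20 differed in control medium only, 7 in LPS only, 2 in both and 1 in neither. Cp, the copper ferroxidase ceruloplasmin, had 52.95, 65.5, 54.5 and 72.2 CPM in irradiated LPS libraries, against 60.2, 59.3 and 46.8 CPM in non-irradiated LPS libraries, which overlapped. It had 4.48, 4.46, 4.99, 2.81 and 2.10 CPM in irradiated control libraries, against 10.97, 41.8 and 15.8 CPM in non-irradiated control libraries. Its response was 3.90 in irradiated and 1.48 in non-irradiated macrophages, with an interaction of 2.42 ± 0.48 (SE, limma, adjusted p = 0.00997). Tgfbi, a matrix protein, had responses of 2.95 in irradiated and 1.14 in non-irradiated macrophages (interaction 1.80 ± 0.36, SE, limma, adjusted p = 0.0113). The early response gene Ier3 had responses of 2.12 in irradiated and 0.93 in non-irradiated macrophages (interaction 1.19 ± 0.25, SE, limma, adjusted p = 0.012). Ehd1, a membrane-recycling ATPase, had 382, 318, 311 and 386 CPM in irradiated LPS libraries, against 237, 209 and 195 CPM in non-irradiated LPS libraries. It had 36.4 to 61.4 CPM in irradiated control libraries, against 64.5, 136 and 68.3 CPM in non-irradiated control libraries, and an interaction of 1.49 ± 0.28 (SE, limma, adjusted p = 0.00752). Tnip3, an inhibitor of NF-kappaB signalling, had an interaction of 1.26 (limma, adjusted p = 0.0157) and was the 1 of 19 NF-kappaB factors and feedback inhibitors with a call, against 3.41% of all genes. Its call was lost without non-irradiated M1 replicate 3, at an adjusted p of 0.0523.

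Some of the strongest LPS responses were retained, and others were lost, weakened or undetermined. Those of Nos2, Cxcl10 and Irf7, at 5.40, 5.13 and 5.00 in non-irradiated macrophages, were undetermined. Ccl5, a chemokine for T cells and monocytes, had 1491, 1657, 1543 and 1036 CPM in irradiated LPS libraries, against 1888, 2197 and 2350 (2349.8) CPM in non-irradiated LPS libraries. Its responses were 6.12 in irradiated and 6.23 in non-irradiated macrophages, and its interaction of -0.12 ± 0.39 (SE) lay within the 1 log2 margin. Slfn4, Klra2, Glrx and H2-Q4 were retained in the same sense, with interactions of -0.03, 0.05, -0.01 and -0.02. Fgl2, a fibrinogen-like protein, was retained as a response (0.12) although its level was lower after irradiation in both media. It averaged 351 CPM in irradiated LPS and 1231 CPM in non-irradiated LPS libraries, and 25.4 CPM in irradiated control and 107 CPM in non-irradiated control libraries. Phlda3, a p53 target, fell with LPS by 0.89 in irradiated and 0.85 in non-irradiated macrophages, and was higher after irradiation in both media (2.27 in LPS and 2.32 in control medium). Of 17 MHC class I and peptide-loading genes, 16 rose with LPS in both settings, against 19.2% of all genes in irradiated and 18.5% in non-irradiated macrophages. Of the 17, 11 were retained and H2-T23 alone had a called interaction (-0.83), against 3.41% of all genes. The interaction lay below 0 in 16 of the 17, with a median of -0.30, where over all genes it did so in 6916 of 13297. After irradiation 7 of the 17 were called lower in LPS and 1 in control medium, against 6.17% and 6.69% of all genes. H2-T23 kept its call only without FLASH M0 replicate 2, standard M0 replicate 1 or 2, standard M1 replicate 2 or non-irradiated M0 replicate 2, and its adjusted p reached 0.124.

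The inflammatory cytokines were mostly undetermined. Of 19 tested, 15 rose with LPS in irradiated macrophages and 13 rose and 1 fell in non-irradiated ones, against 19.2% of all genes that rose in irradiated macrophages and 18.5% that rose and 17.3% that fell in non-irradiated ones. Of the 19, 12 were undetermined, 2 were retained and none had a called interaction, against 3.41% of all genes. Tnf had 165, 182, 151 and 144 CPM in irradiated LPS libraries, against 60.3, 114 and 81.3 CPM in non-irradiated LPS libraries, with no overlap. Its interaction of 1.10 ± 0.32 (SE, limma) had an adjusted p of 0.0609. Il1b had an interaction of 1.495, Il6 of 0.99 and Il10 of -0.20. Nos2, the inducible nitric oxide synthase, had 20.3, 75.2, 16.9 and 28.0 CPM in irradiated LPS libraries, against 65.6, 186 and 118 CPM in non-irradiated LPS libraries, and an interaction of -1.34 (limma, adjusted p = 0.279). Tlr4 itself had an interaction of -0.34 and Cd14 of 0.60, with no call. The interferon beta gene Ifnb1 averaged 0.894 CPM in irradiated LPS and 2.26 CPM in non-irradiated LPS libraries, with an interaction of -1.01 that was not called (limma, adjusted p = 0.226). Of 20 cholesterol synthesis genes, 17 fell with LPS in irradiated and 14 in non-irradiated macrophages, against 18.7% and 17.3% of all genes, and none had a called interaction, against 3.41%.

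An interaction arises in LPS, in control medium or in both, and the 454 genes were spread over these. Irradiated and non-irradiated macrophages differed in 1455 genes in LPS, or 10.9% (634 higher, 4.77%; 821 lower, 6.17%). They differed in 1661 genes in control medium, or 12.5% (772 higher, 5.81%; 889 lower, 6.69%). The count in control medium was 952 without non-irradiated M0 replicate 3. Of the 454, 223 differed in LPS and 241 in control medium. Lost responses differed in LPS only in 55, in control medium only in 76, in both in 12 and in neither in 12. Weakened responses differed in LPS only in 65, in control medium only in 24, in both in 12 and in neither in 5. Gained responses differed in LPS only in 39, in control medium only in 60, in both in 9 and in neither in 11. Gzmb, with a difference of -5.49 in LPS and 0.15 in control medium, and H2-Aa, with -2.63 in LPS and -5.07 in control medium, are examples from the same class of lost responses.

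**Figure D4:**
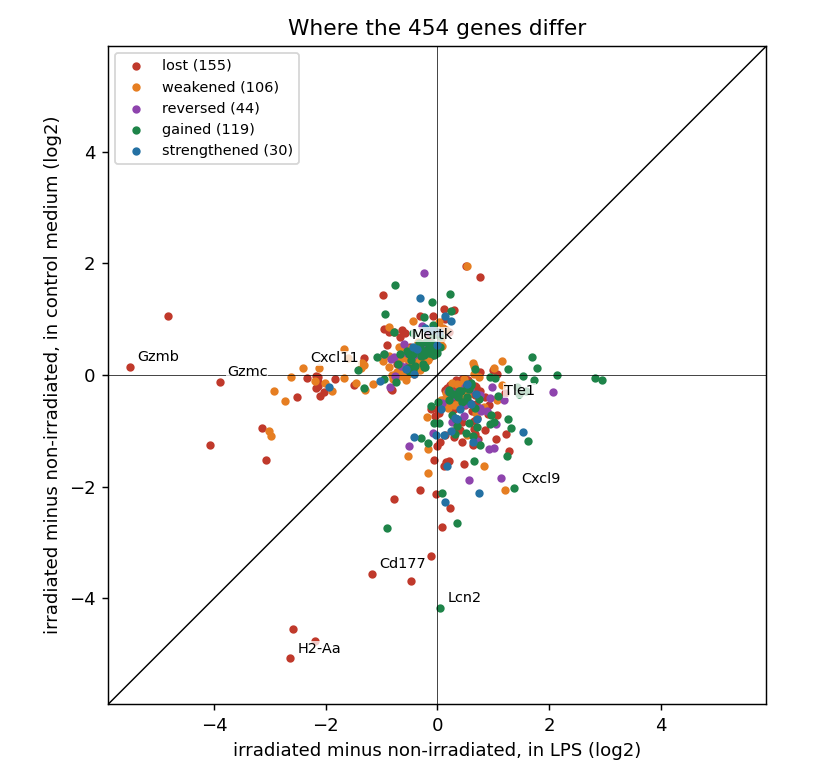
Irradiated minus non-irradiated difference in LPS (x axis) and in control medium (y axis), both log2, for the 454 genes with a called interaction, colored by the kind of change. Points on the line would have no interaction. Gzmb lies at -5.49 in LPS and 0.15 in control medium, and Lcn2 at 0.05 in LPS and -4.17 in control medium.

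The direction of a list in the interaction was checked under 2 other scalings. The negative median of the antiviral genes (-0.92), the GTPases (-0.70) and the killer-cell transcripts, and the positive median of MHC class II, proliferation and neutrophil genes, kept their sign under median-of-ratios scaling and under equal column totals. The small negative medians of the Groucho and Notch list (-0.14), the macrophage core genes (-0.17) and the LPS metabolism list (-0.11) turned positive under equal column totals, as did those of the costimulatory, p53, alternative activation and immediate early lists. Other cell markers moved too. Of 11 B lineage markers tested, 8 were lower after irradiation in LPS and 7 in control medium. Of 13 monocyte markers tested, 5 were lower in LPS and 6 in control medium. Of 16 dendritic cell markers tested, 5 were lower in LPS and 8 in control medium. Of 16 mast cell, basophil, megakaryocyte and progenitor markers tested, 9 were lower in LPS and 7 in control medium. Over all genes 6.17% were lower in LPS and 6.69% in control medium. B lineage genes summed to 201 to 259 CPM in irradiated LPS libraries, against 319 to 332 CPM in non-irradiated LPS libraries, and to 195 to 264 CPM in irradiated control libraries, against 346 to 404 CPM in non-irradiated control libraries. Stromal and osteoblast markers summed to 1399 to 1681 CPM in irradiated LPS libraries, against 666 to 1303 CPM (665.5 to 1303) in non-irradiated LPS libraries, and to 7192 to 8728 CPM in irradiated control libraries, against 1582 to 2928 CPM in non-irradiated control libraries. That sum does not describe the typical member. In control medium 1 of the 14 tested was called higher and 1 lower after irradiation, against 5.81% and 6.69% of all genes. The median difference of the 14 there was -1.09. The part of these cells in the interaction was not tested.

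**Figure D5:**
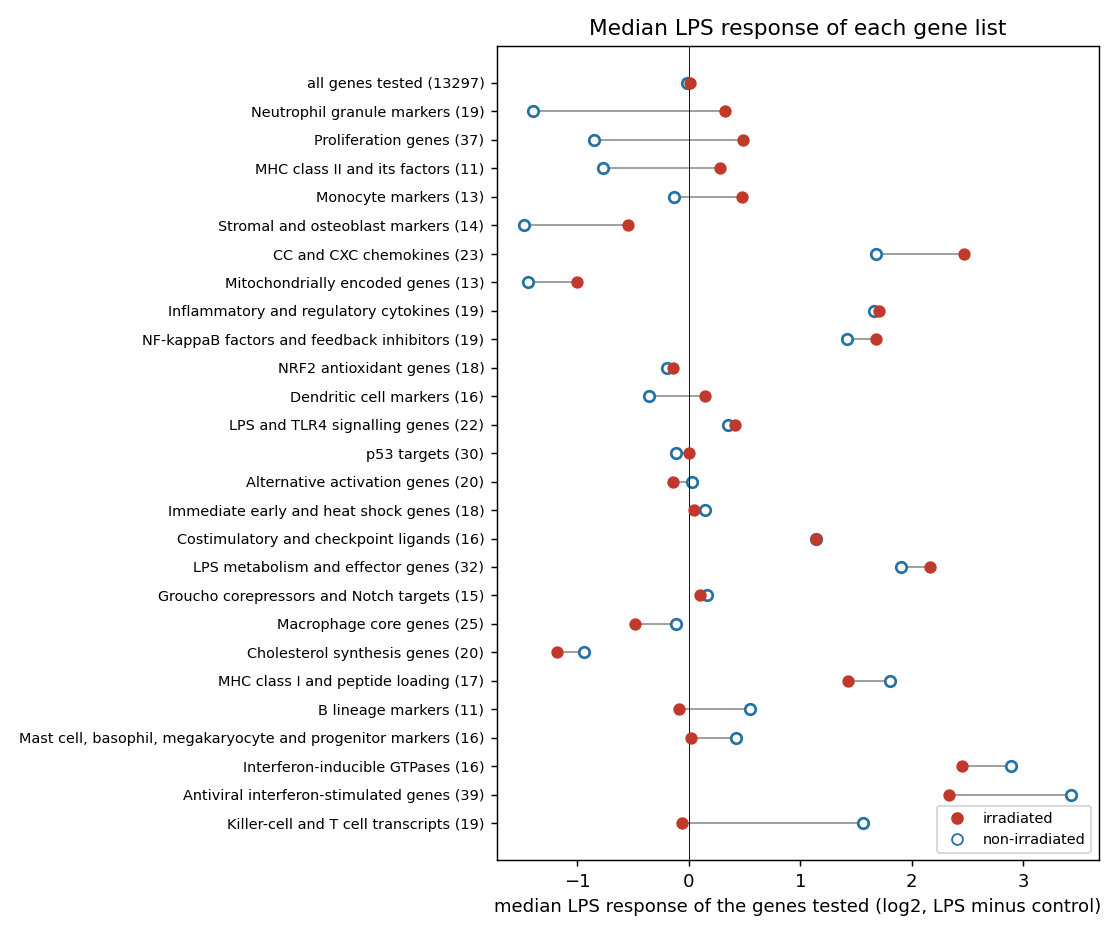
Median LPS response (log2) of the tested members of each gene list in irradiated macrophages (filled red) and non-irradiated macrophages (open blue), with the number tested in brackets, ordered by the median interaction, and all 13297 genes at the top. The largest negative gap is that of the killer-cell and T cell transcripts, at -0.06 in irradiated and 1.57 in non-irradiated macrophages, and the largest positive gap that of the neutrophil markers, at 0.32 in irradiated and -1.40 in non-irradiated macrophages.

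The response after FLASH was also set against that after the standard beam. In a fit with 9 group means, 0 of the 13297 genes differed between the beams in their LPS response (limma, percent called 0, smallest adjusted p = 0.201), and 418 had an unadjusted p under 0.05. The fit rested on 2 FLASH and 2 standard LPS libraries, and a missed threshold does not show that the beams act alike. Each beam's own interaction, which shares the non-irradiated libraries with the other's, was -5.78 for FLASH and -5.40 for the standard beam for Gzmb, and 1.34 for FLASH and 1.64 for the standard beam for Tle1.

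The genes with the most similar pattern to Gzmb over the 27 libraries, on the log2 scale, were Il2rb, with a Pearson correlation of 0.942, Gzmc with 0.937, Trbc2 with 0.924, Sh2d2a with 0.904 and Serpina3b with 0.894. For Tle1 they were Soga1 with 0.892, Vsig8 with 0.837, Tmem109 with 0.822, Ivns1abp with 0.818 and Gm17296 with 0.814. The libraries fall into groups by treatment, so these values describe a shared pattern of group levels.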

How the data were processed

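The authors deposited 1 table of scaled read counts (CPM) for 19070 entries in 27 libraries, a normalized signal per gene rather than read counts. The submitters' processing notes name kallisto 0.46.1, edgeR 3.36.0, R 4.0.5 and the human build GRCh38, although the samples are mouse; which reference was used is not given in the sources used here. Column sums ran from 929399.7 to 1072727.2, and 1 entry without a symbol (0.0048 to 0.00799% of a column) was left out. Between 95.31 and 98.05% of values per library were whole reads within 0.01 read, too few for a count test, so limma 3.58.1 (statmod 1.5.0, R 4.3.3) was used on log2(CPM + 0.5), with an intensity trend, robust moderation and 6 group means over 22 libraries. Genes needed 1 CPM in 3 libraries. P-values were Benjamini-Hochberg adjusted over all 13297 genes. Depth was read from the smallest step of the deposited signal. No 2 columns were identical (highest correlation 0.9854).

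The libraries, the 26 gene lists and the genes followed here were chosen with earlier results of these data known. Genes were named by a rule: per class, the 8 with the largest interaction, or for retained the largest non-irradiated response, among genes with a group mean of at least 5 CPM; from each list at most 2 called genes a direction; and a set of LPS genes. Some genes the rule names are not reported here. Txk, Tgtp2, the markers of other cells and other list members were named beyond it. Each replicate number carries 1 title code in every group, whose meaning is not stated. Same-numbered libraries of different groups did not deviate from their group means in the same direction over all genes (median correlation -0.122 over 78 pairs, highest 0.143). For differently numbered libraries the median was 0.0673 over 136 pairs, with a highest of 0.297. The main fit therefore has no block, but these correlations cannot show that the number is without effect. Alternatives changed the pseudocount, filter, scaling, moderation, samples and design. The script was checked on simulated data.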

Additional observations from a re-analysis of the deposited data

Results flagged for a closer look

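Of the genes given by the naming rule and reported here, 59 had an LPS response that differed between irradiated and non-irradiated macrophages by the interaction test (limma, log2 interaction in brackets). List members named beyond the rule, such as Lck and Top2a, are not counted. The interaction was positive for Lcn2 (4.22), Cxcl9 (3.4), Vsig8 (3.27), Tmem176a (3.21), Tmem176b (3.12), Emr4 (3.01), Raver2 (2.88), Serpinb2 (2.87), Bmp1 (2.82), Olfml2b (2.62), H2-Ab1 (2.58), Gpr84 (2.55), Fcrls (2.47), H2-Aa (2.44), Cp (2.42), Cd177 (2.4), Esco2 (2.32), Clmp (2.26), Nusap1 (2.25), Slpi (2.19), Rapgef5 (2.14), Cd74 (1.96), Iqgap3 (1.94), Kif11 (1.89), Gpr18 (1.84), Tgfbi (1.8), Ccnb2 (1.73), Chpf (1.64), Ctps (1.55), Tle1 (1.51), Ehd1 (1.49), Fcnb (1.43), Mad2l1 (1.43), Ccl9 (1.42), Lpcat4 (1.36), Tnip3 (1.26), Ier3 (1.19), Blnk (0.71), mt-Atp8 (0.64) and mt-Cytb (0.5). It was negative for Tusc3 (-5.89), Gzmb (-5.65), Gzmc (-3.77), Il2rb (-2.81), Tgtp1 (-2.62), Cxcl11 (-2.54), Lhx2 (-2.27), C4b (-2.25), Il18bp (-2.14), Cd5l (-2.07), Ly6a (-2.02), Chst3 (-1.74), Pde1c (-1.69), Thy1 (-1.62), Tgm2 (-1.44), Mertk (-1.15), Tlr13 (-0.92), H2-T23 (-0.83) and Acsl1 (-0.75).

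In 15 of 168 groups of 4 or 5 values, 1 library lay apart from the rest of its group. By chance the cutoffs give about 1 in 20 for normally distributed values. They were applied to CPM rather than log2 values, where that rate need not hold, so 15 of 168 is not read as an excess. The lone values were C4b at 8.87 CPM in standard M1 replicate 3 and Cd40 at 2.35 CPM in FLASH M0 replicate 3. Others were Chpf at 15.1 CPM in standard M0 replicate 3, Chst3 at 9.94 CPM in standard M0 replicate 3, Cxcl10 at 207.6 CPM in FLASH M1 replicate 3, Gzmc at 0.469 CPM in standard M1 replicate 3, H2-T23 at 535.7 CPM in standard M1 replicate 3, Il12b at 0.28 CPM in standard M0 replicate 1. The remainder were Il6 at 0.322 CPM in FLASH M0 replicate 3, Phlda3 at 182.1 CPM in standard M0 replicate 3, Tgtp1 at 35.7 CPM in FLASH M1 replicate 3, Tusc3 at 0.554 CPM in standard M1 replicate 3, Tusc3 at 11 CPM in FLASH M0 replicate 2, Wnt6 at 7.74 CPM in FLASH M1 replicate 3, Wnt6 at 1.68 CPM in standard M0 replicate 1.

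Gzmb was also present in non-irradiated M2 libraries, which entered no comparison, with a lowest value of 2.07 CPM, above the highest of the non-irradiated control libraries (0.708 CPM).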

How the results depend on the processing

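Among the genes given by the naming rule, none with a called interaction changed direction under any alternative run. Some without a call did, such as Tnf at -0.23 and Il1b at -0.19 with all libraries under their labels. Of these 87 genes, 61 were called, and 26 of the 61 kept their call in each of the 15 fits that left out 1 library. Of the 26, 22, with Gzmb and Tle1 among them, also kept it under every other alternative, leaving aside the run with all 27 libraries under their labels. In that run 13 of the 61 kept their call, among them Gzmb (-5.37) and Tle1 (1.53). With equal column totals the interaction was called for 952 genes (344 shared), and the classes held 393 lost, 165 weakened, 78 reversed, 254 gained and 57 strengthened genes. Without trend and robust moderation 65 were weakened, and with only the 4 compared groups 77 were reversed. With 9 group means the interaction was called for 266 genes (255 shared), with 88 lost, 58 weakened and 64 gained. With the replicate number as a block it was 293 (286 shared), with 97 lost, 68 weakened and 72 gained. With replicates 2 and 3 only it was 183 (157 shared), with 956 genes differing in control medium and 59 lost, 40 weakened, 13 reversed, 59 gained and 12 strengthened. With all 27 libraries under their labels, including the 5 at odds with them, the irradiated response was called for 887 genes, the non-irradiated for 2728 and the interaction for 68; 862 genes differed in LPS and 616 in control medium, with 60 lost, 3 weakened, 3 reversed, 2 gained, 0 strengthened and 994 retained. The cause of these shifts was not tested. Leaving out 1 library gave 196 to 605 interactions, 952 to 1753 differences in control medium, and 56 to 193 lost, 49 to 231 weakened, 20 to 48 reversed, 49 to 139 gained and 12 to 30 strengthened responses. The difference between beams gave 0 calls with the replicate block and under the labels, the only alternatives run for it. In the 18 libraries chosen by Irg1 and Arg1, with no test, the difference for each of the 87 genes lay within 1 SD of the tested value, the SD being that of the gene's 18 log2 values about their 4 group means. As 15 of these 18 are the tested libraries, such closeness was largely fixed in advance and is no independent check. Irg1 and Arg1, which sorted the libraries, are also among the 87. With 3 or 4 LPS libraries a group, 1426 responses could be called neither altered nor retained.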
